A study of Homo sapiens with 6 samples.

Results

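HT1080 is a line established from a human fibrosarcoma. Here its integrin alpha3 siRNA arrays were compared with its mock arrays, 4 arrays out of the 6 in the series. The 2 alpha3 siRNA arrays (titled alpha3-1 and alpha3-2) hold total RNA of cells transfected with the pGUS vector, which expressed GFP together with an siRNA against the mRNA of integrin alpha3. The 2 mock arrays (titled HT1080-GUS-1 and HT1080-GUS-2) hold RNA of cells that received the pGUS vector with GFP only. Every array thus carries vector and GFP, and the groups differ by the siRNA. The mock cells received no non-targeting siRNA, so silencing of integrin alpha3 and expression of any siRNA cannot be told apart. The remaining 2 arrays of the series carry an siRNA against MT1-MMP and were left out of the comparison. The labels give no time after transfection, no siRNA sequence and no second siRNA against integrin alpha3, and do not state whether the replicate arrays stem from separate cultures. P-values here thus reflect the array-to-array spread alone, possibly technical, and the number of arrays limits the precision. Of the 22283 probe sets on the array, the 19065 with 1 gene symbol were analysed, standing for 11963 genes.

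ITGA3 encodes integrin alpha3, which joins the beta1 subunit at the cell surface to bind laminins of the basement membrane. The pair sits in membrane complexes with tetraspanins such as CD151, and signals through focal adhesion kinase and SRC to the actin cytoskeleton. In carcinoma cells it has been tied to the expression of proteases and of factors that act on vessels.

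The values are deposited signal intensities. Median signals of the 4 arrays lay between 72.9 and 79.1, and the 3' to 5' ratios between 0.905 and 0.935 for GAPDH and between 0.850 and 0.896 for actin. Between 66 and 91 values per array were under 1, except on alpha3 siRNA replicate 1, which had 2. Over the 19065 probe sets, which share each array's RNA and scaling, mock replicate 1 and alpha3 siRNA replicate 2 correlated at r = 0.977, above the mock pair (0.972) and the alpha3 siRNA pair (0.964). Signals on the log2 scale differed by over 1 within the mock pair for 2.80% of probe sets and within the alpha3 siRNA pair for 4.12%, and between the group means for 0.970%. Each group mean averages 2 arrays, which by itself narrows differences, so the last share cannot be set directly against the shares within pairs. A probe set is called dim below where its mean lies under the 40th percentile (a signal of 51.0). The 5 markers of the line's mesenchymal identity were all above that level, vimentin (VIM) with 13725 and 13664 in mock against 12271 and 12784 in alpha3 siRNA cells. Markers of endothelial cells (4 of 5 dim), leukocytes (3 of 4 dim), erythroid cells (1 of 2 dim) and smooth muscle and pericytes (4 of 5 dim) were low, with summed signals of 56.6 to 673 per list and array.

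ITGA3 itself had lower signals in the cells that carried its siRNA. Its single probe set gave 1139 and 1290.3 in mock against 148 and 347 in alpha3 siRNA cells, with means of 1214 ± 107 (SD, n = 2) and 248 ± 141 (SD, n = 2). Both siRNA arrays lay below both mock arrays, and alpha3 siRNA replicate 1 was the lower one. The log2 fold change, taken here on log2(signal + 32) as alpha3 siRNA minus mock, was -2.25 (SE 0.34). In the limma fit of the 4 arrays this gave an unadjusted p of 2.41e-04 and an adjusted p of 0.574 over 19065 probe sets, so the target of the siRNA did not itself pass the threshold of 0.05. In bulk RNA, less ITGA3 RNA in every cell and its loss from only some of the cells cannot be told apart.

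Its partner subunit ITGB1 had 3894 and 4296 in mock against 4057 and 4429 in alpha3 siRNA cells on its brightest probe set, and the groups overlapped (log2 fold change 0.05, SE 0.16). CD151, a tetraspanin bound by the alpha3 subunit, had 1149.8 and 1249 in mock against 1431 and 1254 in alpha3 siRNA cells (0.16, SE 0.17), where the groups were apart by a narrow margin. Of the 13 measured genes in the list of the integrin and its partners, 0 passed the threshold in either direction. Arrays did not overlap for 3 genes on the higher side and 3 on the lower side. Over all genes, arrays did not overlap for 16.6% on the higher side and 16.2% on the lower side. The list's median log2 fold change was 0.05, against 0.01 over all genes. Besides ITGA3, the non-overlapping lower members were TSPAN4 (-0.28, and 0.03 on its overlapping second probe set), a tetraspanin, and CAV1 (-0.24, and -0.04), the caveolar coat protein. The higher ones were CALR (0.42), a chaperone that binds integrin tails, with CD81 (0.14) and CD151.

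Across all probe sets, limma called 0 of 19065 at an adjusted p under 0.05 (0.0% higher and 0.0% lower), and P2RX5 had the lowest adjusted p, 0.0943. Without adjustment, 867 had a limma p under 0.05, of which 444 (2.33%) lay higher and 423 (2.22%) lower with alpha3 siRNA, while a threshold of that size is expected to pass 953 by chance alone. The genes below are therefore described by their signals and by whether arrays overlapped, and none of them is called changed. By its brightest probe set, a gene could be more than 1 away on the log2 scale with no overlap: this held for 55 genes on the higher side and 53 on the lower side.

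P2RX5, an ATP-gated ion channel, stood closest to the threshold. It had 13.3 and 9.5 in mock against 355 and 367 in alpha3 siRNA cells. The mock arrays were at the dim end of the scale and both siRNA arrays were alike, and the difference was 3.18 on the log2 scale (SE 0.27, limma adjusted p = 0.0943). P2RX5 passed the threshold when all 6 arrays shared 1 estimate of spread (limma adjusted p = 0.0247). It also passed when dim probe sets were left out (limma adjusted p = 0.0143 over 11439 probe sets), but its mock signals lay under the dim level and only its siRNA arrays kept it in that test, so this adds no support. It did not pass with quantile normalization (adjusted p = 0.463), and a filter at the 60th percentile left it out. Of the 21 measured genes in the list of purinergic receptors and ectonucleotidases, 12 were dim. The list's median was -0.01, and P2RX1, another channel of the family, was the next highest at 0.58 with 50.4 and 48.3 in mock against 112 and 71 in alpha3 siRNA cells. NT5E, which makes adenosine from AMP, was the lowest of its non-overlapping members at -0.41. It was dim on every array, with 13.6 and 20.6 in mock against 6.7 and 3 in alpha3 siRNA cells.

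**Figure D1:**
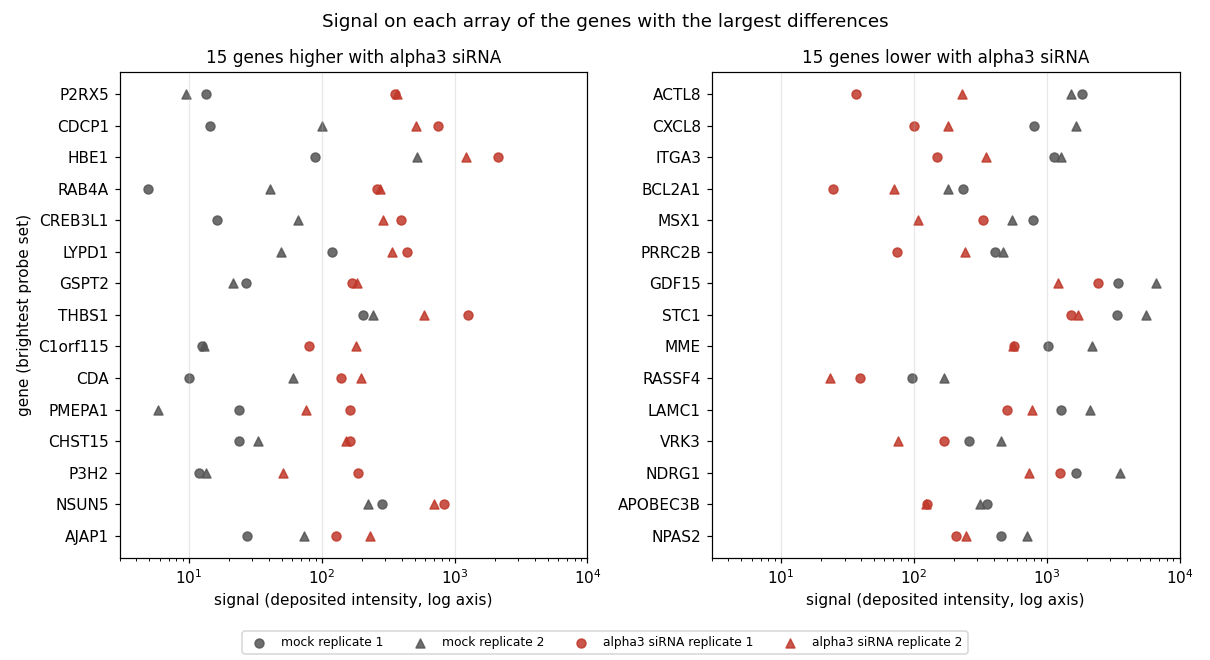
Signal on each of the 4 arrays (log axis) of the 15 genes with the largest log2 fold change on each side, among genes with no overlap between the groups and an unadjusted limma p under 0.01. Grey points are mock arrays and red points alpha3 siRNA arrays; P2RX5 and GSPT2 show tight pairs, while CDCP1 and RAB4A differ widely within the mock pair.

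Among the 15 genes on the higher side were several cell surface and secreted proteins, given here together with the enzyme CHST15. CDCP1, a transmembrane substrate of SRC kinases, had 14.4 and 100.4 in mock against 749.5 and 509 in alpha3 siRNA cells, so that both siRNA arrays lay above the mock arrays but the mock arrays themselves lay far apart (3.05, SE 0.48, limma adjusted p = 0.664). THBS1, the matricellular inhibitor of vessel growth, had 204 and 242 in mock against 1251 and 589 in alpha3 siRNA cells (1.81, SE 0.34, limma adjusted p = 0.729). LYPD1, a GPI-anchored protein of the LY6 family, had 120.0 and 49 in mock against 436 and 337 in alpha3 siRNA cells (1.91). CHST15, which sulfates chondroitin sulfate chains, had 23.8 and 33.1 in mock against 162 and 153 in alpha3 siRNA cells (1.65), and its groups were well apart beside small gaps within each pair. AJAP1, a protein of adherens junctions, had 27.3 and 73.3 in mock against 127 and 229 in alpha3 siRNA cells (1.37), and its other probe set above the dim level was at 1.57.

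Further genes on the higher side include proteins that act inside the cell. RAB4A, a GTPase of recycling endosomes, had 4.9 and 40.4 in mock against 259 and 272 in alpha3 siRNA cells (2.53), and its 2 dimmer probe sets were at 1.42 and 1.05. CREB3L1, a transcription factor held in the endoplasmic reticulum membrane, had 16.2 and 66 in mock against 394 and 286 in alpha3 siRNA cells (2.42), but its other probe set overlapped between the groups at 0.53. GSPT2, a translation termination factor, had 26.9 and 21.3 in mock against 169 and 185 in alpha3 siRNA cells, a separation as wide as the pairs were tight (1.90, SE 0.27, limma adjusted p = 0.574). NSUN5, a methyltransferase of ribosomal RNA, had 285 and 222 in mock against 834 and 701 in alpha3 siRNA cells (1.49), and its second probe set was at 1.38. HBE1, the embryonic epsilon globin, had 89.2 and 518 in mock against 2134 and 1207 in alpha3 siRNA cells (2.67), with a dim second probe set at -0.13. The remaining genes on this side were C1orf115 (1.79) and the cytidine deaminase CDA (1.67). With them were PMEPA1 (1.66), a TGF-beta-induced membrane protein, and P3H2 (1.60), a collagen prolyl hydroxylase. These genes had mock means under the dim level's signal of 51.0, as did P2RX5, RAB4A, GSPT2, CHST15, CREB3L1 and AJAP1. P3H2 differed between the siRNA arrays themselves, at 186 and 51.2.

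On the lower side, ACTL8 had the largest difference of all genes. ACTL8, an actin-like gene whose expression is normally limited to testis, had 1832 and 1535 in mock against 36.6 and 231 in alpha3 siRNA cells (-3.67, SE 0.55, limma adjusted p = 0.574). Both mock arrays were bright, and the siRNA arrays differed from each other 6.31-fold, against 1.19-fold for the mock arrays. CXCL8, the chemokine interleukin 8 that draws neutrophils and promotes vessel growth, had 795 and 1647 in mock against 101 and 181 in alpha3 siRNA cells (-2.81, SE 0.37, limma adjusted p = 0.574). Its second probe set had 406 and 250.2 in mock against 71.9 and 96.2 in alpha3 siRNA cells (-1.61), so both probe sets kept the groups apart. BCL2A1, an inhibitor of apoptosis induced by NF-kappaB, had 233 and 181 in mock against 24.5 and 71.2 in alpha3 siRNA cells (-1.64, SE 0.36).

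Several secreted proteins and surface enzymes were bright in mock cells and lower on both siRNA arrays. GDF15, a stress-induced cytokine, had 3441 and 6600.0 in mock against 2449 and 1209 in alpha3 siRNA cells (-1.45), with a dim, overlapping second probe set at 0.30. STC1, a secreted glycoprotein induced by hypoxia, had 3390.4 and 5561 in mock against 1531 and 1722 in alpha3 siRNA cells (-1.40), and its dimmer probe sets were at -0.95 and -0.59. MME, the membrane peptidase neprilysin, had 1021 and 2184 in mock against 563 and 558 in alpha3 siRNA cells (-1.37), and -1.78 on its other probe set. On the brightest probe sets of GDF15, STC1 and MME, mock replicate 2 was the brightest array and mock replicate 1 lay between it and the siRNA arrays. On the dimmest STC1 probe set, mock replicate 1 was the brighter, at 2050.2 against 1755.1. LAMC1, the laminin gamma1 chain, had 1271 and 2127 in mock against 505 and 771 in alpha3 siRNA cells (-1.35), while its second probe set overlapped at -0.72.

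Nuclear and other intracellular proteins completed this side. MSX1, a homeobox factor, had 791 and 548 in mock against 333 and 107 in alpha3 siRNA cells (-1.62). NDRG1, a gene induced by hypoxia, had 1670.2 and 3553 in mock against 1257 and 733 in alpha3 siRNA cells (-1.31), again with mock replicate 2 well above the rest. APOBEC3B, a DNA cytidine deaminase, had 354 and 315 in mock against 125 and 124 in alpha3 siRNA cells (-1.23, SE 0.22), where both pairs were tight. NPAS2, a circadian transcription factor, had 451 and 709 in mock against 206 and 248 in alpha3 siRNA cells (-1.21), and its 5 probe sets were all lower with no overlap, from -1.21 to -0.37. RASSF4 (-1.36), the kinase-like VRK3 (-1.34, and -0.46 and -0.27 on its other probe sets) and PRRC2B (-1.45, and -0.30 on its other probe set) were the last of the 15.

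**Figure D2:**
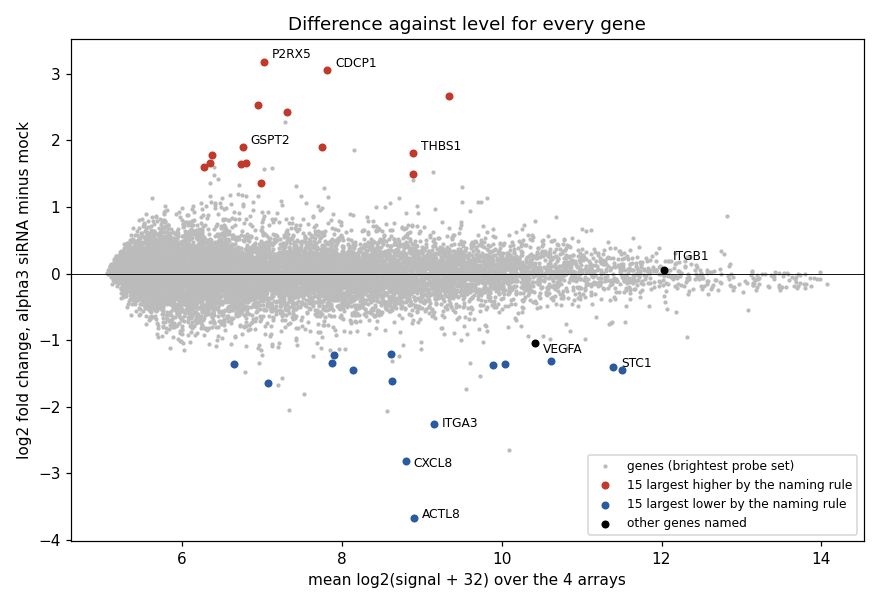
Log2 fold change of each of the 11963 genes (alpha3 siRNA minus mock, brightest probe set) against its mean log2(signal + 32) over the 4 arrays. Red and blue points are the 15 genes on each side that the naming rule took. Black points are ITGB1, at 0.05, and VEGFA; grey points far from 0 are genes whose arrays overlapped or whose unadjusted p was 0.01 or above.

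Genes read by several probe sets gave a check within the same arrays, since the probe sets of a gene read the same RNA, though their oligonucleotides can overlap. Of the 2479 genes with at least 2 probe sets above the dim level, 10 had all of them higher with no overlap and a log2 fold change above 0.58, and 14 had all of them lower in the same way. This limit was chosen after the values were seen. The dim level is set on the mean of all 4 arrays, so a gene that is low in 1 group can enter only through the arrays of the other group. All 3 probe sets of RAB4A and both of AJAP1 entered through their siRNA arrays in this way. For 1043 of the 2479 genes the probe sets had log2 fold changes of opposite sign. On the higher side were AJAP1, NSUN5 and RAB4A, followed by TES, a focal adhesion protein (median over probe sets 1.18), the monoamine oxidase MAOA (1.03), CCN1 (1.02), N-cadherin (CDH2, 0.95) and the proteoglycan versican (VCAN, 0.88). TES had 339 and 289.8 in mock against 843 and 521 in alpha3 siRNA cells, and its second probe set had 212 and 236 in mock against 769 and 494 in alpha3 siRNA cells. CDH2 had 291 and 489.7 in mock against 1116 and 536 in alpha3 siRNA cells, with alpha3 siRNA replicate 2 close to the upper mock array. On the lower side, LOX, the lysyl oxidase that cross-links collagen, was second to CXCL8 with a median of -1.73 over its 3 probe sets, and had 616 and 2853 in mock against 518 and 273 in alpha3 siRNA cells on its brightest probe set. The mock pair of LOX was itself far apart, and mock replicate 1 was nearer to the siRNA arrays than to mock replicate 2. EPAS1, a hypoxia-inducible transcription factor, had 890.3 and 1642 in mock against 822 and 247 in alpha3 siRNA cells (-1.35, and -0.76 on its second probe set). IFI16, a nuclear DNA sensor, had 821 and 1584 in mock against 625 and 667 in alpha3 siRNA cells, with its 3 probe sets between -0.82 and -0.69 and none overlapping.

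**Figure D3:**
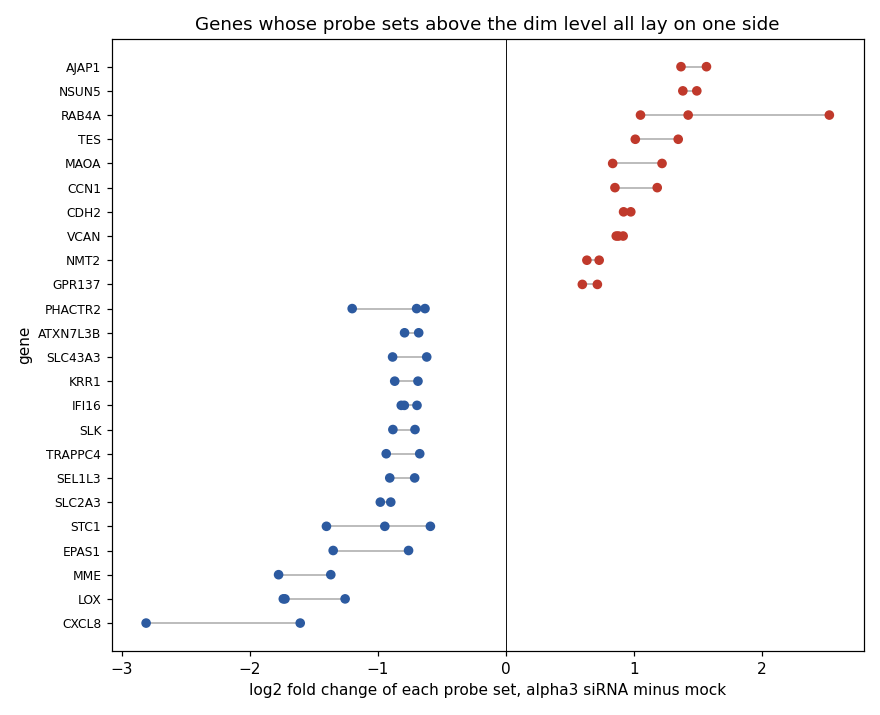
Log2 fold change (alpha3 siRNA minus mock) of every probe set above the dim level for the 24 genes whose probe sets all lay on one side with no overlap and beyond 0.58. Points are probe sets, and grey lines join those of a gene; the 3 probe sets of VCAN nearly coincide, while those of RAB4A run from 1.05 to 2.53.

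The remaining results follow lists of genes with a common role, from the integrin's own ligands outward. None of the 24 lists held a gene that passed the threshold, and for each the counts of non-overlapping genes are to be read against the 16.6% (higher) and 16.2% (lower) over all genes. On leaving out 1 array, the median turned sign for 16 of the 24 lists. The 8 that kept their sign were hypoxia, unfolded protein, early response, BCL2 family, angiogenic, cholesterol, p53 and ribosomal genes.

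Other integrin subunits had a median of 0.08 over 14 measured genes, 6 of them dim, with 3 genes non-overlapping on each side. The median turned to -0.13 and -0.44 when dim probe sets were left out at the 40th and 60th percentile. ITGA5, which pairs with beta1 as the fibronectin receptor, was lower with 1014 and 1400.4 in mock against 877 and 703 in alpha3 siRNA cells (-0.58), as was the collagen-binding subunit ITGA10 with 251 and 515 in mock against 203 and 169 in alpha3 siRNA cells (-0.85). ITGAV, a subunit of vitronectin receptors, was on the higher side with 493 and 477 in mock against 720.0 and 518 in alpha3 siRNA cells (0.32), and ITGA6, another laminin-binding alpha subunit, stood at 0.02 and -0.04 on its 2 probe sets. The ligands of the integrin and other basement membrane genes had a median of 0.15 over 16 genes, 5 non-overlapping on the higher side and 3 on the lower. LAMC1 and the linker NID2 (-0.56) lay lower. LAMB1, the laminin beta1 chain, had 343 and 285 in mock against 539 and 366 in alpha3 siRNA cells (0.47), and collagen IV lay higher as well with 1093 and 922 in mock against 1696 and 1137 in alpha3 siRNA cells for COL4A1 (0.46, and 0.0022 on its overlapping second probe set). LAMA5, whose chain forms laminins that the integrin binds, overlapped with 126 and 169 in mock against 145 and 203 in alpha3 siRNA cells. The median of this list was -0.04 without alpha3 siRNA replicate 1 and -0.0041 without mock replicate 1, so its direction rested on those arrays.

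Matricellular proteins and proteoglycans divided. Over 21 genes the median was -0.02, yet 7 genes (33.3%) were non-overlapping on the higher side and 2 on the lower. At an unadjusted limma p under 0.05, 4 of the 21 lay higher, where 2.27% of all genes did. The median turned to 0.54 with a filter at the 60th percentile, 0.13 without mock replicate 2 and 0.14 without alpha3 siRNA replicate 2. The matricellular protein CCN1 had 1324 and 1059 in mock against 1803 and 2591 in alpha3 siRNA cells on its brightest probe set and 941 and 903 in mock against 1803 and 2518 in alpha3 siRNA cells on the other (0.85 and 1.18). CCN2, its close relative, had 485 and 579 in mock against 608 and 1803 in alpha3 siRNA cells (0.95), and alpha3 siRNA replicate 1 was only just above the mock arrays. VCAN had 134 and 229 in mock against 368 and 334 in alpha3 siRNA cells (0.88), and all 5 of its probe sets lay higher with no overlap. TNC, tenascin C, was at 0.75, and -0.03 on its dim second probe set. Fibronectin (FN1) had 1869 and 5529 in mock against 5237 and 1882 in alpha3 siRNA cells, high on 1 array and low on the other of each group (-0.03), and FBN2, a fibrillin, was the lowest at -0.63. THBS1 had 5 probe sets, of which 4 lay between 1.80 and 2.08, while the dimmest, with 80.4 and 74.9 in mock against 66.6 and 66.2 in alpha3 siRNA cells, was at -0.16.

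CCN1, CCN2 and THBS1 are known targets of the YAP and TEAD transcription factors. Because the 3 genes lay higher together, the promoters of CCN2 and THBS1 were looked at. CCN1 could not be searched, since the RefSeq promoter table used here has no entry for it. The RefSeq promoter table (GRCh38.p14) was searched from 250 bases before to 50 bases after the gene start, on both strands, for the TEAD-like GGAATG, a motif chosen after the values were seen. It matched in 4928 of the 35116 promoters in the table. CCN2 held 3 matches, the first bases of which lie 169, 104 and 95 bases before the gene start, and THBS1 held 1 match that begins 46 bases before it. A match describes the sequence and is no evidence of binding. The AP-1 site TGANTCA, present in 7.71% of promoters, had no match in either window. The 250 bases upstream of both genes are given 5′ to 3′ on the gene's strand, chr6:131951373-131951622 (minus strand) for CCN2 and chr15:39580829-39581078 (plus strand) for THBS1, with GGAATG in capitals.
CCN2: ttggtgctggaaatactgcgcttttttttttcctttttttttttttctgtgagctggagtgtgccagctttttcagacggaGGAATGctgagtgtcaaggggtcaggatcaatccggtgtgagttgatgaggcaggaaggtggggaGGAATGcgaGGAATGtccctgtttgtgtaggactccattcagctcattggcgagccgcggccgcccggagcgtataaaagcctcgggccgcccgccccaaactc
THBS1: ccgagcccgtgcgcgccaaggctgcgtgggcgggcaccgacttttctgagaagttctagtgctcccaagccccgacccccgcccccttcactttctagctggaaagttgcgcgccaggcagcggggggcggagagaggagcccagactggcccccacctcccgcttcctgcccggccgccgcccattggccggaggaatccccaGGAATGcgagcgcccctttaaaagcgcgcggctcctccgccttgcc

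Collagens and their processing enzymes had a median of -0.04 over 25 genes with 4 non-overlapping on each side, LOX being the lowest. On their brightest probe sets, COL6A1 (0.49) and COL1A1 (0.35) were among the non-overlapping ones on the higher side. The other probe sets of COL6A1 ran from -0.22 to 1.23, and those of COL1A1, all dim and overlapping, from -0.15 to 0.51. COL18A1 (-0.35, and -0.20 on its overlapping second probe set, both dim) was among those on the lower side. Leaving out alpha3 siRNA replicate 2 moved the list's median to 0.25, and leaving out replicate 1 to -0.18. Focal adhesion and actin genes had a median of 0.03 over 29 genes, with 5 non-overlapping on the higher side and 8 on the lower. PTK2, focal adhesion kinase, had 529 and 770.1 in mock against 416 and 411 in alpha3 siRNA cells (-0.59), and its second probe set was also lower at -0.23. The actin crosslinker ACTN4 had 2083 and 2463 in mock against 1788 and 1693 in alpha3 siRNA cells (-0.37), vinculin (VCL) was at -0.25 with a dim second probe set at 0.54, and PARVA, a partner of integrin-linked kinase, was the highest at 1.02 with 47.8 and 237 in mock against 279.9 and 249.5 in alpha3 siRNA cells, and 0.31 on its second probe set. On the brightest one, mock replicate 1 stood apart from the other 3 arrays.

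The study's title concerns MT1-MMP, a membrane-bound metalloproteinase. The list of 26 metalloproteinases and inhibitors, 10 of them dim, had a median of -0.01, and 6 were non-overlapping on the higher side and 1 on the lower. That 1 was MMP14, the gene of MT1-MMP, with 1971 and 3064 in mock against 999 and 1804 in alpha3 siRNA cells (-0.86, SE 0.32, limma adjusted p = 0.986). Of its 4 probe sets 3 kept the groups apart, and alpha3 siRNA replicate 2 was close to mock replicate 1 on each. The gelatinase MMP2 overlapped with 429.5 and 672 in mock against 730.0 and 384 in alpha3 siRNA cells, and so did MMP9 with 127 and 832 in mock against 292 and 124 in alpha3 siRNA cells. Within the mock pair, MMP9 was 6.57-fold brighter on replicate 2. MMP10, a stromelysin, had the highest log2 fold change of the list at 0.74 (limma adjusted p = 0.986), but its signals were dim on every array with 3.3 and 4 in mock against 24 and 31.2 in alpha3 siRNA cells. MMP3 (0.54) lay higher too. RECK, a membrane inhibitor of metalloproteinases, was at 0.45 on its brightest probe set and at -0.77 on a dim one, both without overlap.

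Genes of plasminogen activation had a median of 0.0025 over 12 genes, with 3 non-overlapping on the higher side and 0 on the lower. SERPINE2, the protease nexin that inhibits thrombin and plasminogen activators, had 965 and 900.3 in mock against 1573 and 1558 in alpha3 siRNA cells (0.73, SE 0.16, limma adjusted p = 0.986). Its arrays were tight in both groups. F3, tissue factor, had 62.6 and 177 in mock against 215 and 445 in alpha3 siRNA cells (1.29), and S100A10, a plasminogen receptor subunit, 4251 and 3975 in mock against 5330.1 and 4915 in alpha3 siRNA cells (0.31). Urokinase (PLAU) and its receptor PLAUR, a known partner of the integrin, overlapped on their brightest probe sets with log2 fold changes of 0.12 and -0.07. The other probe sets of PLAUR were at -0.21, overlapping, and -0.27, lower without overlap at 167 and 181 in mock against 126 and 154 in alpha3 siRNA cells.

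Angiogenic factors and receptors had a median of -0.09 over 24 genes, 4 non-overlapping on the higher side and 5 on the lower. The median was -0.35 with a filter at the 40th percentile and -0.01 without mock replicate 2. CXCL8 was the lowest. VEGFA had 1285 and 2887 in mock against 1400.4 and 602 in alpha3 siRNA cells (-1.04, SE 0.46), and mock replicate 1 lay between the siRNA arrays, so the groups overlapped on 3 of its 4 probe sets. PDGFC (-0.49) and FGF2 (-0.52, but -0.06 on its dim, overlapping second probe set) lay lower with no overlap. PDGFA (0.69, but -0.59 on its dim second probe set) lay higher. Targets of NF-kappaB and inflammatory cytokines had a median of -0.08 over 25 genes, 10 of them dim, with 3 non-overlapping on the higher side and 5 on the lower. CXCL8 and BCL2A1 were the 2 with an unadjusted p under 0.05. The cytokine LIF (-0.45) lay lower, and TNFAIP3, a feedback inhibitor of NF-kappaB, was higher on its brightest probe set (0.50) and overlapped on the other (-0.30). The list's median turned to 0.12 without mock replicate 2 and to 0.10 without alpha3 siRNA replicate 2.

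The promoters of CXCL8 and BCL2A1 were searched because both are induced by NF-kappaB and both lay lower. The kappaB-like GGNNTTTCC matched in 6.26% of the promoters in the table and TGANTCA in 7.71%. CXCL8 held both, an AP-1 match that begins 137 bases before the gene start and a kappaB-like match that begins 91 bases before it. Neither pattern was found in the BCL2A1 window, which says nothing of sites elsewhere. Here too a match describes the sequence and is no evidence of binding, and a cause of the lower signals was not tested. The 250 bases upstream of CXCL8 are chr4:73740319-73740568 (plus strand, GRCh38.p14), with the matches in capitals, TGACTCA first and GGAATTTCC second.
CXCL8: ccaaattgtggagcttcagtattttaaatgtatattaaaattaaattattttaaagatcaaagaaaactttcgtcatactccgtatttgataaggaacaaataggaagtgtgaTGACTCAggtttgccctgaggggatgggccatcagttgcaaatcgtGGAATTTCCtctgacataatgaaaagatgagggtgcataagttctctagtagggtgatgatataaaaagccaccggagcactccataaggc

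Genes of hypoxia and glycolysis had the lowest median of the 24 lists, -0.21 over 34 genes (SD 0.44 over genes). Log2 fold changes were below 0 for 27 of the 34, and 15 (44.1%) were lower with no overlap against 1 higher. At an unadjusted limma p under 0.05, 6 lay lower, where 2.37% of all genes did. Besides STC1 and NDRG1, ENO2, the neuronal form of the glycolytic enzyme enolase, had 471 and 766 in mock against 357 and 199 in alpha3 siRNA cells (-1.08). The glucose transporter SLC2A3 had 363 and 463 in mock against 261 and 160.4 in alpha3 siRNA cells (-0.90), with all 3 probe sets non-overlapping, and the mitophagy receptor BNIP3L had 613 and 1286 in mock against 606 and 354 in alpha3 siRNA cells (-0.89, and -0.35 on its overlapping second probe set). The regulators of glycolytic flux PFKFB4 (-0.68) and PFKFB3 (-0.61) and hexokinase HK2 (-0.49) lay lower too. PKM, pyruvate kinase, was the 1 on the higher side (0.15), and PGK1, phosphoglycerate kinase, stood at -0.03 on its brightest probe set and -0.45 on a second.

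The hypoxia list also differed between replicates. Taking each gene's deviation from its mean over the 4 arrays, the list median was 0.04 on mock replicate 1, 0.19 on mock replicate 2, -0.01 on alpha3 siRNA replicate 1 and -0.24 on alpha3 siRNA replicate 2. Mock replicate 2 was the brightest array for 23 of the 34 genes, against 3116 of 11963 over all genes. Leaving out 1 array, the list's median came to -0.13 without mock replicate 2 and -0.08 without alpha3 siRNA replicate 2, and -0.36 and -0.32 without the other array of each pair. It stayed below 0 in each of these 4 cases.

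**Figure D4:**
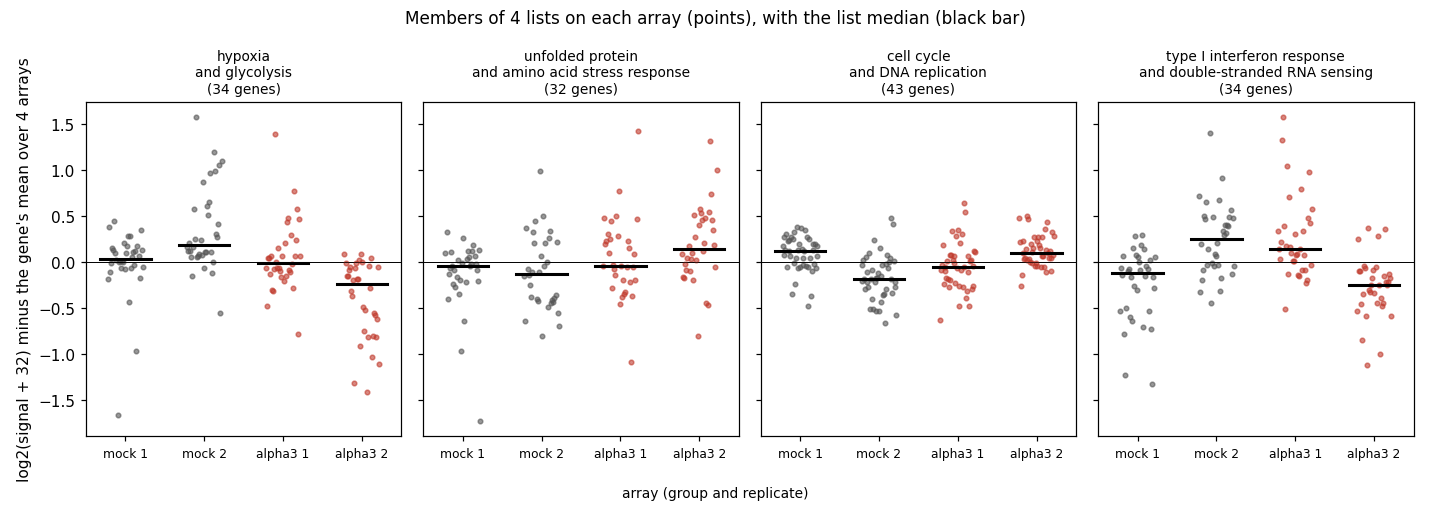
Log2(signal + 32) minus the gene's mean over the 4 arrays, for the members of 4 lists on each array (points; black bars are list medians). For hypoxia and glycolysis the medians run from 0.19 on mock replicate 2 to -0.24 on alpha3 siRNA replicate 2, and for the type I interferon response the 2 arrays of each group lie on opposite sides of 0.

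Genes that answer unfolded proteins or amino acid stress had the highest median, 0.22 over 32 genes (SD 0.48), with 23 above 0, 7 (21.9%) non-overlapping on the higher side and 0 on the lower. CREB3L1 led the list. ATF3, a stress-induced transcription factor, had 78.7 and 73.3 in mock against 167 and 139 in alpha3 siRNA cells (0.77). The glycyl-tRNA synthetase GARS1 had 1676 and 1384 in mock against 1885 and 2271 in alpha3 siRNA cells (0.43), and CALR had 1596 and 1253 in mock against 1964 and 1853 in alpha3 siRNA cells, with its 3 probe sets at 0.42, 0.22 and 0.67. DDIT3, the proapoptotic factor CHOP, was at 0.30, while the chaperone HSPA5 (0.05) and asparagine synthetase ASNS (0.15) overlapped. The median stayed between 0.13 and 0.25 on leaving out any 1 array.

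Cell cycle and replication genes, none of them dim, had a median of 0.05 over 43 genes, 9 non-overlapping on the higher side and 4 on the lower. MYBL2, a transcription factor of dividing cells, had 302 and 186 in mock against 506 and 330.3 in alpha3 siRNA cells (0.71), the helicase subunit MCM7 1208 and 857 in mock against 1606 and 1467 in alpha3 siRNA cells (0.58), and the licensing factor CDC6 381 and 260.3 in mock against 493 and 445 in alpha3 siRNA cells (0.53). PCNA, the sliding clamp of replication, was lower with 1556 and 1332 in mock against 849 and 1164 in alpha3 siRNA cells (-0.52). CDC25A, a phosphatase that activates CDKs, was at 0.54 on its brightest probe set and -0.23 on its overlapping second one. Mock replicate 2 was low for this list, with a median deviation of -0.18 against 0.12 on mock replicate 1, and the list's median turned to -0.11 without mock replicate 2. The p53 targets and CDK inhibitors had a median of 0.13 over 17 genes, 5 non-overlapping on the higher side and 3 on the lower. It was 0.01 without mock replicate 2 and 0.22 without alpha3 siRNA replicate 1. GADD45A, a growth arrest gene, had 823 and 892 in mock against 1253 and 1341 in alpha3 siRNA cells (0.58), and GADD45B was alike at 0.58. PMAIP1, the proapoptotic NOXA, was at 0.47, and at 0.30 on its overlapping second probe set. GDF15 was the lowest, and CDKN1A, the CDK inhibitor p21, had 1500.0 and 1553 in mock against 1343 and 937 in alpha3 siRNA cells (-0.43).

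The BCL2 family and apoptosis genes had a median of -0.14 over 20 genes, with 7 (35.0%) lower without overlap and 2 higher. BCL2A1 was the lowest. MCL1, another inhibitor of apoptosis, had 3658 and 3054 in mock against 1722 and 2255 in alpha3 siRNA cells (-0.75), and 4 of its 5 probe sets were lower with no overlap. CASP8, the initiator caspase of death receptors, was at -0.50 and APAF1, the scaffold of the apoptosome, at -0.31 (-0.62 on its second probe set), so that both inhibitors and effectors of apoptosis were among the lower genes.

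TGF-beta and BMP signalling had a median of -0.00085 over 28 genes, 4 non-overlapping on the higher side and 8 on the lower. The receptor TGFBR2 had 2386 and 3583 in mock against 1468 and 1452 in alpha3 siRNA cells (-0.99, SE 0.22, and -0.88 on its overlapping second probe set), and the ligand TGFB2 had 50.8 and 52.7 in mock against 126 and 107 in alpha3 siRNA cells (0.82, but 0.00085 on its second probe set). Genes of mesenchymal and epithelial state had a median of 0.01 over 24 genes, 11 of them dim. Both kinds of gene were on both sides. Of the mesenchymal factors, SNAI2 had 755 and 685 in mock against 195 and 481 in alpha3 siRNA cells (-1.14) and ZEB1 581 and 451 in mock against 218 and 438 in alpha3 siRNA cells (-0.67), lower, whereas CDH2 was higher. Of the epithelial genes, keratin 8 (KRT8) had 485 and 609 in mock against 1457 and 945 in alpha3 siRNA cells (1.07, SE 0.25, limma adjusted p = 0.986) and its pair keratin 18 (KRT18) 2482 and 2542 in mock against 3121 and 3219.5 in alpha3 siRNA cells (0.33). E-cadherin (CDH1) was dim on every array with 28.4 and 29.3 in mock against 9.3 and 4.4 in alpha3 siRNA cells, as was KRT19 with 1.7 and 2.3 in mock against 5.5 and 3 in alpha3 siRNA cells. Summed over the 6 epithelial markers the signal was 3045 and 3283 in mock against 4634 and 4232 in alpha3 siRNA cells, most of it keratins 8 and 18, and its part in other results was not tested.

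Early response genes and MAPK feedback had a median of -0.17 over 28 genes with 3 non-overlapping on each side, and 20 below 0. JUND had 319.5 and 589 in mock against 1006 and 589.5 in alpha3 siRNA cells (0.78), its lower siRNA array barely above mock replicate 2, and DUSP5, a phosphatase of ERK, had 1476 and 1635 in mock against 585 and 1349.7 in alpha3 siRNA cells (-0.78). Type I interferon genes and sensors of double-stranded RNA, which siRNA vectors can induce, had a median of -0.09 over 34 genes, 10 of them dim, with 2 non-overlapping on the higher side and 5 on the lower. MX1, an antiviral GTPase, was the highest with 44.3 and 55.3 in mock against 162 and 122 in alpha3 siRNA cells (1.08), and IFITM2 was lower with 3269 and 3769 in mock against 2791 and 2252 in alpha3 siRNA cells (-0.48). IRF9, a transcription factor of the response, was at -0.58 and TLR3, a sensor of double-stranded RNA, at -0.41 on a dim probe set. Within each group the 2 arrays lay apart: median deviations were -0.12 and 0.25 for mock, and 0.14 and -0.25 for alpha3 siRNA. The RNA interference machinery had a median of -0.09 over 11 genes, with DROSHA, the nuclease that cuts primary miRNAs, at -0.33, PRKRA, a partner of Dicer, at -0.31 and AGO3 at 0.22. FMR1, an RNA-binding protein, was at -0.54 on 1 probe set and 0.41 on the other, both without overlap.

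Of the last 3 lists, cholesterol and fatty acid synthesis had a median of -0.15 over 22 genes, 7 (31.8%) lower with no overlap and 1 higher. The stearoyl-CoA desaturase SCD had 703 and 1429 in mock against 602 and 452 in alpha3 siRNA cells (-0.90), although its 3 other probe sets overlapped, and INSIG1, which retains the sterol sensor in the endoplasmic reticulum, had 493 and 976 in mock against 402 and 447 in alpha3 siRNA cells (-0.67) with all 3 probe sets apart. The median was -0.02 without mock replicate 2. Ribosomal proteins had a median of -0.15 over 28 genes (SD 0.10), 10 (35.7%) lower with no overlap and 1 higher. RPS7 was the lowest with 7869 and 8676 in mock against 6514 and 7389 in alpha3 siRNA cells (-0.25). The median came to -0.05 with quantile normalization and -0.05 without mock replicate 2. Cancer-testis genes had a median of -0.04 over 18 genes, with 4 non-overlapping on the higher side and 2 on the lower. ACTL8 stood alone at the low end, and PAGE1 was at the high end with 50.9 and 28.7 in mock against 98.7 and 877 in alpha3 siRNA cells (2.28), where 1 siRNA array carried most of the difference.

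**Figure D5:**
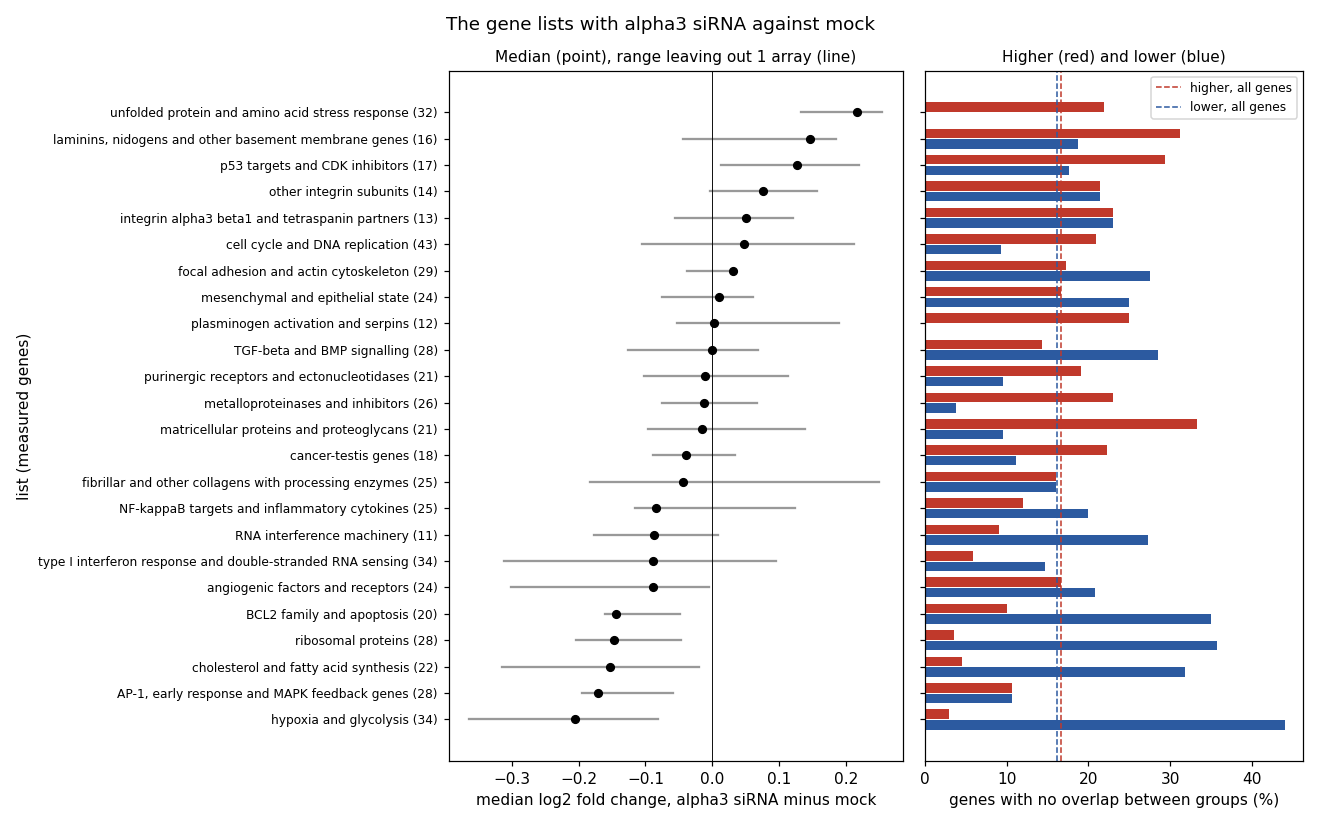
For each of the 24 lists (measured genes in brackets), the median log2 fold change of alpha3 siRNA minus mock with its range on leaving out 1 array (left), and the share of genes whose arrays did not overlap between the groups (right, red higher and blue lower; dashed lines give all genes, 16.6% and 16.2%). Hypoxia and glycolysis has 44.1% of its genes lower with no overlap, and the unfolded protein list has none lower.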

How the data were processed

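Total RNA was measured on single-channel oligonucleotide arrays, and the values are the signal intensities the authors deposited, linear and above 0. Leaving out the brightest and dimmest probe sets, the middle 96% averaged 250.1 on each array, so the deposited intensities had been scaled to a common level. How probes were summarised and their background treated is not given in the sources used here. Groups and replicate numbers come from the sample titles. Of the probe sets, 19065 had 1 gene symbol in the platform annotation (19053 matched a RefSeq gene record by identifier and 0 symbols needed updating), 1043 had several, 2107 none and 68 were controls. No genome build is named for the arrays. Within neither pair were more than 71 singly named probe sets identical, so each array counted as 1 replicate.

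Signals below 1 were raised to 1, 32 was added and log2 taken, which damps differences of dim genes. Group means of the 4 arrays were fitted with limma 3.58.1 under R 4.3.3 (lmFit, eBayes with an intensity trend, 2 residual and 5.25 prior degrees of freedom), without a filter, and p-values were adjusted by Benjamini-Hochberg over 19065 probe sets. With 2 against 2 arrays an exact permutation test cannot go below p = 0.333, so none was used. A gene is given by its brightest probe set. Each SE belongs to its log2 fold change. Arrays of 19065 probe sets were simulated for this comparison, with independent normal noise and changes in 200 probe sets above the dim level. The test recovered 8.21% of those changed by 1 on the log2 scale, 83.4% by 2 and 97.3% by 3. Of the calls, 4.96% were false. The deposited arrays can differ from these settings, so the shares do not measure what was missed here. ACTL8, at -3.67, did not pass.

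Named genes were the 15 largest differences each way with no overlap and an unadjusted p under 0.01, 19 measured genes of a fixed list, and up to 4 non-overlapping members per list; other names were chosen after their values were seen. Y-linked and X-inactivation genes were left out. The comparison, lists and rule were chosen with earlier results of these data known. Promoter sequences are RefSeq's (GRCh38.p14). Alternatives were other normalizations, offsets, filters, the brightest probe set alone, all 6 arrays, no trend, a replicate block, and leaving out each array. Figures used matplotlib 3.10.9.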

Additional observations from a re-analysis of the deposited data

How the results depend on the processing

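No probe set was called, as in the fit reported, when arrays were quantile normalized or set to a common 75th percentile, with an offset of 1 or of 100, without the trend, with the brightest probe sets alone, or with the filter at the 60th percentile. The count was 1 (P2RX5) with a filter at the 40th percentile and 1 (P2RX5) with all 6 arrays. An added fit of all 6 arrays to the brightest probe sets above the 40th percentile called 2, P2RX5 and GSPT2. The mock signals of both genes lie under the 40th percentile, so both entered the filtered fits only through the siRNA arrays, and those calls are no support. With the replicate block it was 101 (52 higher, 49 lower), and ITGA3 then passed at a log2 fold change of -2.25 (limma adjusted p = 6.62e-11). Same-number deviations correlated at -0.114 over probe sets, which share each array's RNA, so the numbers gave no sign of a pairing. With 1 difference per group, this value cannot settle whether the arrays were paired. The crossed pairing, added after this was seen, called 8. Leaving out 1 array gave between 0 and 148 calls, 77 without mock replicate 2 and 148 without mock replicate 1, and ITGA3 between -2.79 and -1.71, past the threshold without mock replicate 1 and without mock replicate 2. These fits have 1 residual degree of freedom. Without either mock array limma estimated an infinite prior and took every probe set's spread from the trend, and with the block the prior was 178.2 degrees of freedom, so those calls rest on that assumption. The 867 probe sets at an unadjusted p under 0.05 became 532 and 346 with the filters at the 40th and 60th percentile, which test fewer probe sets, 443 in the added fit, and between 741 and 1943 on leaving out 1 array.

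Of 136 genes followed over the alternatives, 6 changed direction, all of them genes whose arrays overlapped. Most of the 136 had been chosen for having no overlap, and such a gene cannot change sign when 1 array is left out. That only overlapping genes turned is therefore no sign that the others are stable. MMP2 was at 0.0073 with a common 75th percentile. On leaving out 1 array, ITGB1 ranged from -0.0193 to 0.12, LAMA5 from -0.011 to 0.40, PLAU from -0.0498 to 0.28, PLAUR from -0.29 to 0.14, MMP9 from -1.94 to 0.50 and MMP2 from -0.45 to 0.42.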

Other observations

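Some probe sets had 1 array far from the other array of its pair. MSN, the membrane-cytoskeleton linker moesin, had 2394 and 3034 in mock against 2518 and 41.7 in alpha3 siRNA cells, so 1 alpha3 siRNA array alone gave its log2 fold change of -2.65. ADAMTS2, a collagen-processing protease, had 23.4 and 14.1 in mock against 379.8 and 16 in alpha3 siRNA cells, again on 1 array only. BEX1 had 131 and 106 in mock against 1058 and 239 in alpha3 siRNA cells, and PYGB, a glycogen phosphorylase, 617 and 893 in mock against 39.5 and 449 in alpha3 siRNA cells. TIE1, an endothelial receptor kinase, had 126 and 719 in mock against 31.4 and 119.9 in alpha3 siRNA cells. These genes were chosen after their values were seen.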
